A study of Mus musculus with 12 samples.

Results

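The mitochondrial genome of the mouse carries 37 annotated genes, and all 37 were followed here through every library of a fetal membrane study. They were taken by position alone, as every gene that the count files place on chromosome MT (GRCm38), out of 48795 genes in the table. Of these, 13 encode messenger RNAs, 2 encode ribosomal RNAs and 22 encode transfer RNAs. Wild-type (WT) membranes, labelled strain C3H, were compared with membranes of mice lacking both biglycan (Bgn) and decorin (Dcn), the double knockout (DKO), labelled C3H and C57BL/6. Both are small leucine-rich proteoglycans of the collagen matrix. Each genotype was sampled at embryonic day 12 (E12) and embryonic day 18 (E18), with 3 libraries in each of the 4 groups. The labels name no single membrane layer, and nothing in them says that the libraries of a group came from separate animals, so p-values measure the spread between these libraries, which may be technical. DKO and WT differ in their strain label as well as in genotype, and these cannot be told apart.

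Mitochondrial DNA is transcribed from both strands into long precursors. Transfer RNA sequences lie between most of the messenger and ribosomal RNAs, and cutting them out releases the mature molecules. The messenger RNAs encode core subunits of respiratory chain complexes I, III and IV and of the ATP synthase (complex V), while all other subunits come from nuclear genes. The ribosomal RNAs build the ribosome that translates them inside the organelle. Most of these genes are read from 1 strand, and mt-Nd6 with a minority of the transfer RNAs comes from the other.

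The libraries held 19967593 to 33065424 counts. The knocked-out genes matched the genotype labels. Bgn was at 14.3 to 16.4 CPM (counts scaled by library size) in E12 DKO and 23.9 to 25.1 CPM in E18 DKO, against 223 to 686 CPM over the WT libraries. Dcn was at 4.67 to 8.44 CPM in DKO and 198 to 978 CPM in WT. Embryonic genes (Hbb-y and Hbb-bh1) gave 81.4%, 87.8% and 74.8% of beta-globin counts in the libraries labelled E18 WT, which was nearer to the E12 DKO libraries (82.3 to 85.1%) than to E18 DKO (1.33 to 2.67%). In E12 WT 1 that share was 14.8%, against 95.1% and 97.1% in the other E12 WT libraries. That group is therefore called the E18-labelled WT libraries throughout. Markers of visceral yolk sac endoderm, 8 of 8 detected in every group, summed to 53300 to 165000 CPM. Markers of amnion epithelium, also 8 of 8, summed to 2240 to 7710 CPM.

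For part of the messenger genes, a near absence of counts went with sequence shared with the nuclear genome. Whether the sharing caused it was not tested. The deposited counts leave out reads that align to several places, and part of the mitochondrial genome has a near-identical stretch in the nucleus at chr1:24611535-24616197 (GRCm38, minus strand, 4663 bases). That stretch carries 7 annotated copies of mitochondrial genes. The first bases of 3 messenger genes stand here beside a nuclear copy, 5′ to 3′, from the GENCODE M21 transcripts of GRCm38, with differing bases in capitals. They are shown because identity to the copy goes with the loss of counts.
mt-Nd3: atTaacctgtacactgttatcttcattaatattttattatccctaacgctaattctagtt
Gm28438: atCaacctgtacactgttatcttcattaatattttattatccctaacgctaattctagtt
mt-Co2: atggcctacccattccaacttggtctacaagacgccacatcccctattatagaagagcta
Gm28661: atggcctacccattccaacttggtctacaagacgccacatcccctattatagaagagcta
mt-Co1: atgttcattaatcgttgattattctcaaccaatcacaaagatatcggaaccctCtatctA
Gm13340: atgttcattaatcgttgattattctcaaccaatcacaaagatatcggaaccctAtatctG
The mt-Co2 copy Gm28661 had no difference over 681 bases. The mt-Nd3 copy Gm28438 (chr1:24612775-24613119) differed at 1 of 345 bases, T3C, with positions counted from 1 at the 5′ end of mt-Nd3. Gm13340, a copy of mt-Co1 on another chromosome (chr2:22588103-22589647), differed at 37 of 1545 bases.

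Messenger genes that this stretch copies nearly whole were nearly uncounted. The genes mt-Co2 and mt-Co3 of complex IV, mt-Atp6 of the ATP synthase, and mt-Nd3 and mt-Nd4l of complex I shared 98.0 to 100% of their 50-base windows with a nuclear transcript. No library held more than 10 counts of mt-Co2, 4 of mt-Co3, 4 of mt-Nd3, 1 of mt-Atp6 or 0 of mt-Nd4l. mt-Atp8, which lies between these genes at MT:7766-7969 but has no annotated copy, was at 0 in all 12 libraries. A count of 0 allows up to 3 counts per library, and such limits cover counting error only. Between these genes, the transfer RNA genes mt-Tk, mt-Tg and mt-Tr were also at 0. Complex V thus had no usable mitochondrial messenger, and complex IV had mt-Co1 alone.

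The other 7 messenger genes were deeply counted. Among them mt-Nd4 and mt-Co1 also have copies in the stretch, at its 2 ends, but these cover only part of each gene. mt-Nd4 shared 62.2% of its windows and mt-Co1 51.1%, over all annotated nuclear transcripts. For mt-Co1, 430 of the 765 shared windows match its copy in the stretch, Gm29216. Their counts are taken here to come from the unshared rest, which was not tested. mt-Nd2 shared 8.19% and mt-Nd5 7.61%. mt-Nd1, mt-Nd6 and mt-Cytb shared 0%. The ribosomal RNA gene mt-Rnr2 shared 1.04% and mt-Rnr1 0%.

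**Figure D1:**
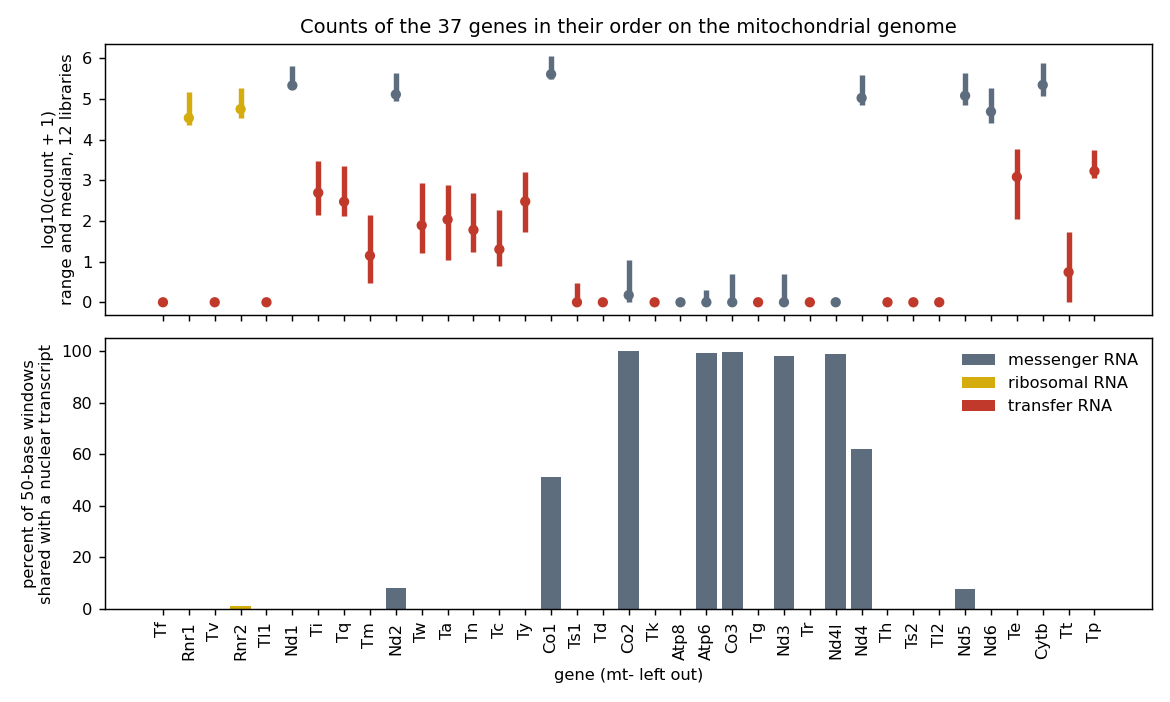
Upper panel, log10(count + 1) of each of the 37 genes in genome order, with the range (bar) and median (point) over 12 libraries. Lower panel, percent of the gene's 50-base windows that also occur in a nuclear transcript. The messenger genes from mt-Co2 to mt-Nd4l, with 98.0 to 100% of windows shared apart from mt-Atp8 (0%), sit at or near 0 counts.

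Counts of transfer RNA genes followed their neighbours, a pattern noticed after the values were seen. With 1 gene on the same strand within 5 bases on 1 side, 9 of 11 genes reached more than 2 counts in some library. With neighbours on both sides, 0 of 8 did, and with none, 2 of 3 did. Beside mt-Tk, mt-Tg and mt-Tr, the uncounted genes were mt-Tf, mt-Tv, mt-Tl1, mt-Td, mt-Th, mt-Ts2 and mt-Tl2, at 0 in every library, and mt-Ts1, with at most 2 counts. mt-Ts1 and mt-Td lie between the copied parts of mt-Co1 and mt-Co2. The filter on low counts was passed by 20 members, 7 messengers, 2 ribosomal and 11 transfer RNA genes. Reads touching several genes on 1 strand were not assigned, per the file headers, so a transfer RNA count here is of fragments that touch no other gene on that strand. These counts do not measure the mature transfer RNA. The library kit is one for messenger RNA, and neither mature transfer RNAs nor ribosomal RNAs are its target. The genes on which later results turn are the transfer RNAs for glutamate (mt-Te), proline (mt-Tp), threonine (mt-Tt) and alanine (mt-Ta), shown whole from the same source, with no base marked.
mt-Te: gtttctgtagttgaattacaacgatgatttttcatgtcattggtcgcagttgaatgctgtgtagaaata
mt-Tp: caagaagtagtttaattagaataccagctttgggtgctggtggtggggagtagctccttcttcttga
mt-Tt: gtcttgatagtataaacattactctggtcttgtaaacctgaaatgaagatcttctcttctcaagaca
mt-Ta: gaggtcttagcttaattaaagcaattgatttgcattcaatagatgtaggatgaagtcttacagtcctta
mt-Te lies at MT:14071-14139 beside mt-Nd6 on the minus strand, and mt-Tp at MT:15356-15422 on the minus strand next to the control region. mt-Tt lies between mt-Cytb and mt-Tp at MT:15289-15355 on the plus strand. mt-Ta lies at MT:5018-5086 on the minus strand in a cluster of transfer RNA genes.

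The share of counts from mitochondrially encoded genes ran from 3.58 to 7.78% in 11 libraries and lay far above that range in E12 WT 3. At E12 the DKO libraries had 4.34%, 5.07% and 4.19% and the WT libraries 4.09%, 7.66% and 21.2%. At E18 the DKO libraries had 6.52%, 3.58% and 7.78%, and those labelled WT 5.36%, 4.39% and 6.81%. The groups overlapped in each of these comparisons, and E12 WT 3 alone lay above the range of 3.58 to 7.78% of the other 11 libraries.

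**Figure D2:**
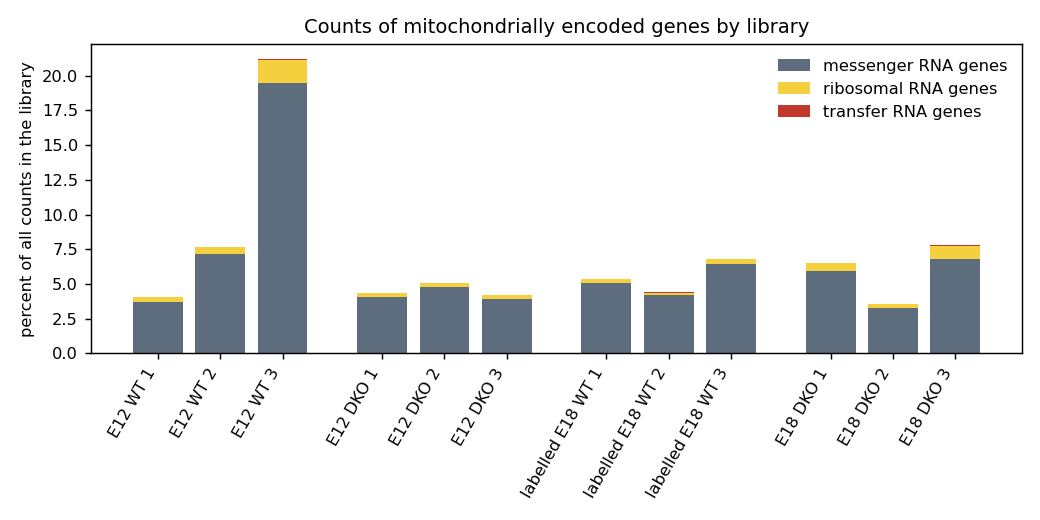
Counts of messenger, ribosomal and transfer RNA genes of the mitochondrial genome as percent of all counts, as a stacked bar for each library from 0. E12 WT 3 reaches 21.2% and the other 11 libraries 3.58 to 7.78%, most of it messenger RNA.

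The group means were 4.54% ± 0.469 (SD, n = 3) for E12 DKO and 11% ± 9.03 for E12 WT. They were 5.96% ± 2.16 for E18 DKO and 5.52% ± 1.22 for the E18-labelled WT libraries. The E12 WT mean was 5.88% ± 2.52 (n = 2) without E12 WT 3. DKO minus WT at E12 was -6.45 percentage points (2-sided exact permutation test, p = 0.4), and -1.34 points without E12 WT 3 (exact p = 0.6). At E18 the difference was 0.439 points (exact p = 0.8). With 3 libraries against 3 the smallest p this test can give is 0.1. With both stages pooled and permuted within stage, DKO minus WT was -3.01 points (exact p = 0.35, smallest possible 0.005) and -0.451 points without E12 WT 3 (exact p = 0.69). E18 minus E12 was 1.42 points in DKO (exact p = 0.4) and -5.47 points in WT (exact p = 0.5), or -0.355 without E12 WT 3 (exact p = 0.8). No difference of the share between groups was thus larger than the spread between libraries.

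E12 WT 3 was high in all classes of mitochondrial RNA. Against E12 WT 2 its CPM were 2.69-fold (mt-Co1) to 4.97-fold (mt-Nd6) for the 7 tested messengers. The ribosomal RNAs mt-Rnr1 and mt-Rnr2 were 4.52-fold and 4.53-fold higher, and 9 tested transfer RNAs with at least 10 counts in each E12 WT library 3.09-fold (mt-Tp) to 9.63-fold (mt-Tw). The other tested ones, mt-Tm and mt-Tt, had 142 and 33 counts in E12 WT 3 against 13 and 6 in E12 WT 2. Nuclear genes for the same complexes were also highest there, by less, and for complexes III and V only by a little. Those of complex III summed to 1270 CPM against 576 to 1070 CPM in the other libraries, and those of complex V to 4240 against 1770 to 4020 CPM. The 36 nuclear subunits of complex I summed to 3620 CPM in E12 WT 3 against 1480 to 2450 CPM in the other libraries, and the 14 of complex IV to 2490 against 871 to 1780 CPM. Markers of mitochondrial mass such as porins, import subunits and matrix chaperones summed to 3260 CPM, within the 1720 to 3460 CPM of the others. In bulk tissue a larger share of mitochondrion-rich cells and more RNA per cell cannot be told apart.

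Levels can be compared between genes only per length, here as CPM per 1000 unshared 50-base windows. On that scale mt-Co1, the catalytic core of cytochrome c oxidase (complex IV), led in every group, with 15289 ± 1954 in E12 DKO (SD, n = 3). Next in E12 DKO came mt-Nd1 at 7196 ± 563, mt-Nd4 at 6441 ± 594 and mt-Cytb at 6072 ± 440. The libraries of mt-Nd4 overlapped those of both neighbours, while mt-Nd1 (6827 to 7843) lay above mt-Cytb (5774 to 6578). mt-Nd2 (4318 ± 452) and mt-Nd6 (4106 ± 547) did not differ beyond their spread, and mt-Nd5 followed at 2733 ± 571. The ribosomal RNAs stood lowest of the deeply counted genes, at 1151 ± 72.7 for mt-Rnr1 and 980 ± 43.1 for mt-Rnr2. The size of the lead of mt-Co1 over mt-Nd1 rests on the correction for shared windows. Per 1000 bases of full length the E12 DKO means were 7234 and 6827 CPM, and the mt-Co1 mean was the higher in every group. In E18 DKO mt-Rnr2 reached 3256 ± 1819, next to mt-Nd6 at 3695 ± 1262 and mt-Nd5 at 2945 ± 1087, and these overlapped.

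DKO against WT at E12 gave no called change among the mitochondrial messengers, though every fitted value was negative. Calls here and below are at adjusted p under 0.05 in edgeR's quasi-likelihood test over all 18153 tested genes, of which 20 are mitochondrial. mt-Co1 was at 10226, 12819 and 10483 CPM in DKO and 14522, 24451 and 65840 CPM in WT. mt-Nd1, a core subunit of complex I, was at 6199, 7122 and 6280 CPM in DKO and 8949, 11631 and 37141 CPM in WT. For both genes the 3 WT libraries lay above the 3 DKO libraries, and the WT spread was wide because of E12 WT 3. mt-Cytb, the mitochondrially encoded subunit of complex III, was at 6421, 7203 and 6323 CPM in DKO and 5902, 12845 and 44980 CPM in WT, so that the groups overlapped. The log2 fold changes of the 7 messengers ran from -1.69 to -1.36 (SE 0.52 to 0.63, adjusted p 0.116 to 0.21, edgeR). Those of mt-Rnr1 and mt-Rnr2 were -1.92 ± 0.66 and -1.91 ± 0.57.

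In edgeR 0 of the 20 mitochondrial genes were called at E12, where 0.353% of all tested genes were. At an unadjusted p under 0.05 the count was 14, against 24.3% of all genes, and DESeq2 called 11, all lower in DKO, with 11.5% of all genes called. The groups did not overlap for 8 of 20, all lower in DKO, against 30.1% of all genes (14.4% lower). The median log2 fold change was -1.75, beside -0.08 over all tested genes. These values turned on single WT libraries. Leaving out E12 WT 3, edgeR called 0 members and 0.0482% of all genes, and the messengers ran from -0.80 to 0.03. Without E12 WT 1 edgeR called 16 of 20, all lower in DKO, with 17.1% of all genes called. Without both of these libraries 0 of 20 were called in edgeR (0.0153% of all genes), and E12 WT was then a single library that is assumed to vary like the other groups.

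At E18 mt-Rnr2 was higher in DKO than in the E18-labelled WT libraries, while all 7 tested messengers overlapped between these groups. mt-Co1 stood at 25588, 13074 and 33416 CPM in DKO against 14931, 12892 and 16963 CPM in the E18-labelled WT libraries. mt-Cytb was at 8498, 5088 and 10415 CPM against 8654, 6730 and 9936 CPM. Both sets overlapped, and the 7 messengers had log2 fold changes from -0.08 to 0.69 (SE 0.51 to 0.61). For mt-Co1 the value was 0.69 ± 0.53 and for mt-Cytb -0.08 ± 0.59. mt-Rnr2, the RNA of the large ribosomal subunit, was at 4505, 2423 and 7892 CPM in E18 DKO against 1517, 990 and 1920 CPM, with no overlap. It rose by 1.74 ± 0.57 on the log2 scale (adjusted p = 0.0294, edgeR). mt-Rnr1, the RNA of the small subunit, was at 2040, 1074 and 3610 CPM against 1076, 680 and 1521 CPM, which overlapped by 1 library (1.04 ± 0.64, adjusted p = 0.214).

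Of the 20 tested members 5 were called at E18, all higher in DKO, at a background of 42.3% of all genes called and 20.5% called higher. The count is thus near the background of its direction. Without overlap were 7 of 20, against 56.9% of all genes. The called members were mt-Rnr2 and the transfer RNA genes mt-Tw, mt-Ta, mt-Tt and mt-Tp. Among them mt-Tt passed the filter on low counts only through the E18 DKO libraries, where it is high. With library size alone, without trimmed-mean scaling, the median log2 fold change of all genes at E18 was -0.41, beside -0.04 with it, and 3 members were then called higher and 1 lower, with 46.3% of all genes called.

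Transfer RNA genes had the largest fold changes of the tested members at E18, and all those called were higher. Of the pair mt-Tp and mt-Te, the first rose and the second was lower but not called in the fit of all 12 libraries. mt-Tp stood at 151, 92.2 and 188 CPM in DKO against 46.2, 44.1 and 64.4 CPM in the E18-labelled WT libraries. It rose by 1.48 ± 0.47 (log2, adjusted p = 0.0251, edgeR). mt-Te was at 10.6, 4.73 and 15.7 CPM against 52.0, 36.0 and 49.0 CPM, again without overlap, but its log2 fold change of -2.14 ± 0.89 missed the threshold (adjusted p = 0.0713). Without E12 WT 3, which lowers the fitted spread, mt-Te was called lower at -2.15 (adjusted p = 0.00369), mt-Tm was called higher at 2.35, and the count became 6 higher and 1 lower of 20, with 45.9% of all genes called.

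mt-Ta stood at 8.08, 5.03 and 11.8 CPM in DKO against 0.377, 0.85 and 0.903 CPM in the E18-labelled WT libraries, a rise of 3.54 ± 0.83 (log2, adjusted p = 0.00617, edgeR). mt-Tw, the tryptophan transfer RNA gene on the opposite strand beside mt-Ta, was at 3.79, 2.26 and 6.97 CPM against 0.565, 0.703 and 0.78 CPM (2.66 ± 0.96, adjusted p = 0.0433). mt-Tt had 30, 47 and 52 counts in E18 DKO and 1, 0 and 2 in the E18-labelled WT libraries. The ratio of the summed counts, 129 against 3, was 60.9 per scaled library size (95% exact interval 20.4 to 299, counting error only). Its fitted log2 fold change of 5.71 ± 1.24 (adjusted p = 0.00417) depends on how so few counts are treated. mt-Tt passed the filter on low counts only through the E18 DKO libraries, the group where it is high, so its call here and in the comparisons that follow is given as a description. mt-Ta kept its call under all 22 alternatives computed, while mt-Tw lost it under 9, mt-Tp under 6 and mt-Rnr2 under 5. The other 6 tested transfer RNA genes beside mt-Te (mt-Ti, mt-Tq, mt-Tm, mt-Tn, mt-Tc and mt-Ty) had log2 fold changes from -0.73 to 2.35 and were not called.

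**Figure D3:**
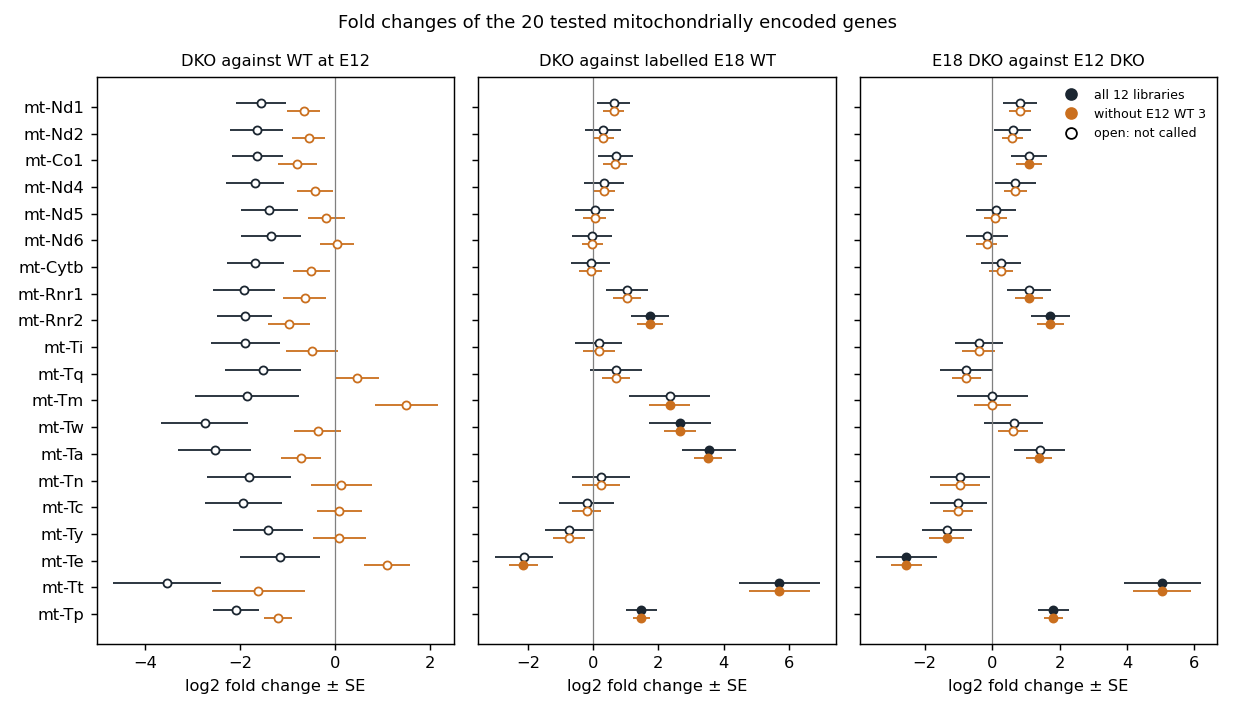
Log2 fold change with its standard error for the 20 tested genes, from the fit of all 12 libraries (dark) and without E12 WT 3 (orange). Filled points passed an adjusted p of 0.05. At E12 (left) the dark points are all negative and open, at E18 (middle) mt-Tt, mt-Ta, mt-Tw, mt-Rnr2 and mt-Tp are filled and positive, and in DKO from E12 to E18 (right) mt-Te is filled and negative.

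Relative to all mitochondrial counts the pair mt-Te and mt-Tp set E18 DKO apart from the other libraries. mt-Te gave 14.0, 14.3 and 16.1 per 10000 mitochondrial counts in E12 DKO, 10.8, 9.26 and 8.19 in the E18-labelled WT libraries and 1.48, 1.19 and 1.66 in E18 DKO. mt-Tp gave 9.58, 9.96 and 10.5, then 9.59, 11.3 and 10.8, then 21.1, 23.1 and 19.9 in the same order. E18 DKO was thus low in the first and high in the second. In E12 WT mt-Te was at 3.05, 5.6 and 13.8 and mt-Tp at 16.4, 14.5 and 13.2. mt-Te as a share of the pair was 59.0 to 60.4% in E12 DKO, 43.2 to 52.9% in the E18-labelled WT libraries and 4.88 to 7.71% in E18 DKO. In E12 WT it was 15.6%, 27.8% and 51.0%. This share was formed after the values were seen and is given with no test. mt-Ty, the tyrosine gene, was at 0.556 to 0.983 per 10000 in E18 DKO and 1.65 to 2.41 in the E18-labelled WT libraries.

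**Figure D4:**
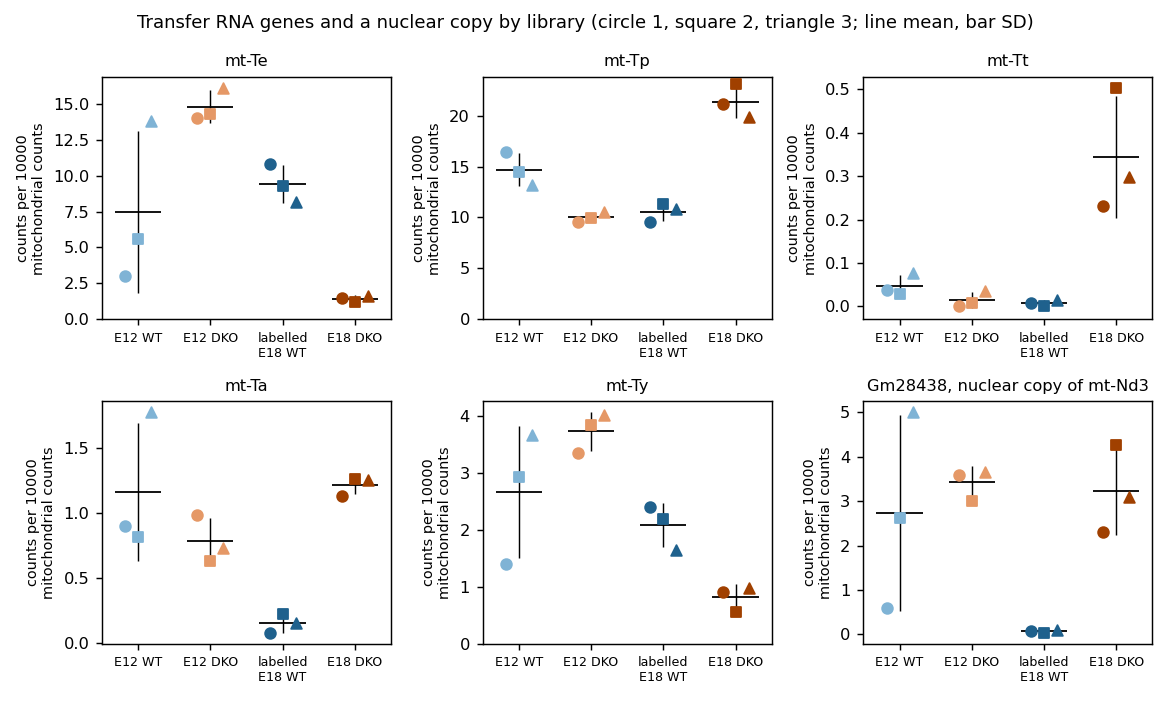
Counts per 10000 mitochondrial counts of 5 transfer RNA genes and of Gm28438, the nuclear copy of mt-Nd3, by group, with each library as a point, the mean as a line and the SD as a bar. E18 DKO is low for mt-Te and mt-Ty and high for mt-Tp and mt-Tt, and the E18-labelled WT libraries are near 0 for mt-Ta and Gm28438.

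The make-up of the mitochondrial counts differed between E18 DKO and the E18-labelled WT libraries without overlap in several values. Ribosomal RNA was 9.15%, 8.78% and 12.1% of mitochondrial counts in E18 DKO and 5.38%, 4.30% and 5.76% in the E18-labelled WT libraries. The ratio of mt-Rnr1 to mt-Rnr2 was 0.453, 0.443 and 0.457 against 0.709, 0.687 and 0.792. Of the messenger counts, mt-Co1 gave 39.5%, 36.1% and 40.3% against 32.8%, 34.8% and 30.2%. E18 DKO was thus high in ribosomal RNA and mt-Co1 and low in the ratio. mt-Cytb fell on the other side, with 13.1%, 14.0% and 12.5% of messenger counts against 19.0%, 18.1% and 17.7%. mt-Nd6, the messenger of the opposite strand, gave 2.90%, 3.00% and 2.71% against 3.71%, 3.41% and 4.23%. Each of these 5 differences had an exact permutation p of 0.1, the smallest possible, and an adjusted p of 0.167 over the 10 values of the comparison, so none passed the threshold. The differences were 4.88 points for ribosomal RNA, -0.278 for the ratio, 6.02 points for mt-Co1, -5.05 for mt-Cytb and -0.913 for mt-Nd6.

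**Figure D5:**
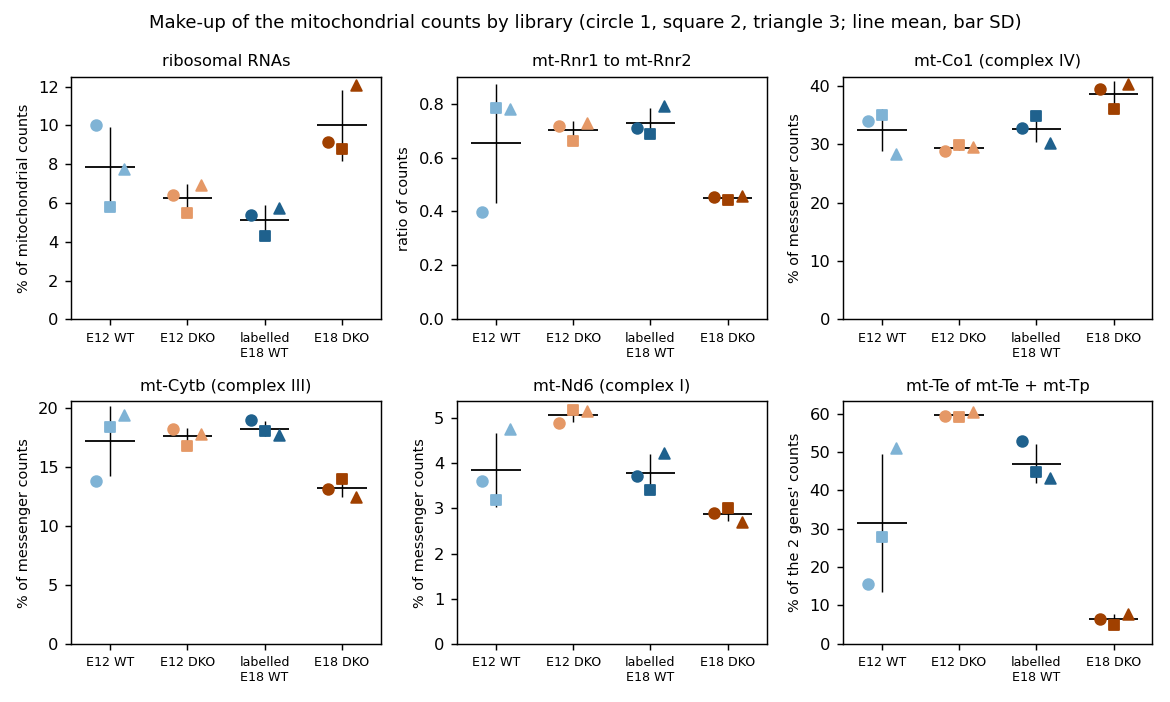
Values of the make-up of mitochondrial counts by group, with each library as a point, the mean as a line and the SD as a bar, all axes from 0. The 3 E18 DKO libraries and E12 WT 1 sit low in the ratio of mt-Rnr1 to mt-Rnr2 (0.399 to 0.457), and the other 8 libraries at 0.662 to 0.792.

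E12 WT 1 resembled E18 DKO in several of these values, but not in mt-Co1 and mt-Nd6. Its ratio of mt-Rnr1 to mt-Rnr2 was 0.399, against 0.782 and 0.780 in the other E12 WT libraries. Ribosomal RNA made 10% of its mitochondrial counts, against 5.81% and 7.73%, and mt-Cytb 13.8% of its messenger counts, against 18.4% and 19.4%. Its mt-Co1 made 33.9% of messenger counts, against 36.1 to 40.3% in E18 DKO and 30.2 to 34.8% in the E18-labelled WT libraries. Its mt-Nd6 made 3.61%, against 2.71 to 3.00% and 3.41 to 4.23%. E12 WT 1 is also the E12 library with little embryonic beta-globin. RNAs held in the nucleus or induced by stress, 16 genes listed beside RNA quality, summed to 4050 CPM in E12 WT 1 and 5410, 6170 and 8220 CPM in E18 DKO. The other 8 libraries were at 1260 to 2700 CPM. In that list 7 of 15 tested genes were called higher and 2 lower in E18 DKO against the E18-labelled WT libraries, where 42.3% of all genes were called and 20.5% called higher, among them the heat-shock gene Hspa1a (3.46 ± 0.33, log2) and the stress factor Atf3 (2.87 ± 0.34). Its part in the make-up of mitochondrial counts was not tested.

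Markers of several other cell types set E18 DKO apart. Those of visceral yolk sac endoderm, smooth muscle, definitive erythroid cells, trophoblast and decidua, neutrophils and neural cells overlapped with other groups. The 5 markers of endothelium summed to 326 to 334 CPM in E18 DKO and 156 to 287 CPM in the other groups. The 8 markers of amnion epithelium summed to 5960 to 7710 CPM in E18 DKO and 2240 to 5370 CPM in the other groups. The 6 of mesenchyme summed to 2540 to 4640 CPM in E18 DKO and 10600 to 29200 CPM elsewhere, and the 6 of macrophages to 828 to 1200 CPM against 312 to 630 CPM. The 8 markers of heart and skeletal muscle, tissues rich in mitochondria, summed to 302 to 569 CPM in E18 DKO and 13.3 to 142 CPM elsewhere, with Myh6, Myh7 and Myog at 0 in E18 DKO. Primitive erythroid markers summed to 17.3 to 19.0 CPM in E18 DKO and 698 to 13300 CPM elsewhere. Cartilage markers were at 5.94 to 7.19 against 47.4 to 1070 CPM, and those of cornifying epidermis at 159 to 205 against 4.37 to 72.0 CPM. Of the epidermis markers Krt1 went the other way, at 0 in E18 DKO, and Cnfn was at 0 in the E18-labelled WT libraries. The part of these cell types in the mitochondrial values was not tested.

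In DKO membranes from E12 to E18 mt-Rnr2, mt-Tt and mt-Tp rose and mt-Te fell. The E18 DKO libraries are shared with the comparison at E18. mt-Rnr2 was at 1413, 1511 and 1537 CPM at E12, below all 3 E18 values (1.73 ± 0.57, log2, adjusted p = 0.0283, edgeR). mt-Tp was at 36.3, 45.4 and 40.4 CPM at E12 (1.82 ± 0.47, adjusted p = 0.00913). mt-Te was at 53.0, 65.3 and 61.7 CPM at E12, above all 3 E18 values (-2.54 ± 0.9, adjusted p = 0.0377). mt-Tt had 0, 1 and 5 counts at E12 (5.05 ± 1.15, adjusted p = 0.0048), a description only, as it passed the filter through the E18 DKO libraries. In all, 4 of 20 members were called, at a background of 46% of all genes, and 9 of 20 did not overlap, against 67.2%. Without E12 WT 3, a library outside this comparison that enters the fitted spread, 6 members were called higher and 2 lower, with 49.4% of all genes called. The added members were mt-Rnr1, mt-Ta and mt-Co1, higher, and mt-Ty, lower. In the same comparison mt-Co1 went from 28.9, 29.9 and 29.5% of messenger counts to 39.5, 36.1 and 40.3%, without overlap (9.18 points, exact p = 0.1, adjusted p = 0.111).

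Between the E18-labelled WT libraries and E12 WT mt-Ta was the single called member (-4.67 ± 0.87, log2, adjusted p = 0.0334, edgeR), at a background of 0.953%. Its E12 WT values were 4.27, 6.07 and 44.7 CPM, all above the labelled E18 WT values of at most 0.903 CPM. It was still called without E12 WT 3 (-2.86 ± 0.45, adjusted p = 0.0262), with 0.557% of all genes called. It lost the call under 9 of 22 alternatives (adjusted p from 1.28e-07 to 0.19). The number of called members ran up to 15 without E12 WT 1, with 8.99% of all genes called, and DESeq2 called 11, with 6.8% of all genes called. All 20 tested members had negative fitted values, from -4.77 to -1.23 (log2, median -1.89, beside -0.05 over all tested genes). Without E12 WT 3 they ran from -2.86 to 0.70 (median -0.64, beside -0.02).

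The DKO effect at E18 was tested against that at E12 as a difference, in which 8 of 20 members were called, all higher at E18, at a background of 41.9% (21.6% higher). They were mt-Rnr1 (2.95 ± 0.92, log2), mt-Rnr2 (3.66 ± 0.81), the messengers mt-Nd1 (2.19 ± 0.72) and mt-Co1 (2.33 ± 0.76), and the transfer RNA genes mt-Tw, mt-Ta, mt-Tt and mt-Tp. The call of mt-Tt is again a description only. Without E12 WT 3 the differences were smaller, at 1.68 for mt-Rnr1, 2.71 for mt-Rnr2, 3.03 for mt-Tw, 4.26 for mt-Ta, 7.33 for mt-Tt and 2.67 for mt-Tp. In that fit mt-Nd1 (1.28, adjusted p = 0.0514) and mt-Co1 (1.49, adjusted p = 0.0526) were no longer called, mt-Te was called lower (-3.24), and 7 of 20 were called, with 42% of all genes called. Leaving out E12 WT 1 brought the count to 15, with 45.5% of all genes called. Over the 21 alternatives of this test the adjusted p ran from 0.00419 to 0.712 for mt-Nd1 and from 0.00265 to 0.609 for mt-Co1. mt-Tw and mt-Ta kept their call under all 21.

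The nuclear copy of mt-Nd3 was counted in every library, and most deeply where mt-Nd3 was at 0. At E12 Gm28438 had 415, 405 and 509 counts in DKO and 64, 546 and 2145 in WT. At E18 it had 299, 399 and 537 counts in DKO and 9, 5 and 13 in the E18-labelled WT libraries. mt-Nd3 had 4 counts in E12 WT 1 and 2, 2 and 3 in the E18-labelled WT libraries, the libraries with the lowest counts of Gm28438. In all other libraries mt-Nd3 was at 0. For Gm28438 the E18-labelled WT libraries were thus below all the others, including the E12 WT libraries of the same strain label. The E18 difference was 5.97 ± 1.18 (log2, adjusted p = 0.00249, edgeR), and that of the DKO effects 7.81 ± 1.49 (adjusted p = 0.00222). Gm10222, another copy in the same block, had 5, 10 and 22 counts in E18 DKO and 0 in each E18-labelled WT library. As Gm28438 differs from mt-Nd3 at 1 base, these counts may hold reads of either. The counts and the differences drawn from them are uncertain. Gm13340, with more differences, had 24 to 99 counts per library.

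Nuclear genes that serve the mitochondrial genome and the respiratory chain were set beside the members. At E18 the counts of called genes were low for the subunits of complex I, with 2 higher and 2 lower of 36 in DKO (median log2 fold change -0.19; 3 higher and 6 lower without E12 WT 3), complex III, with 1 lower of 9, and complex IV, with 1 lower of 14. Of the 16 nuclear subunits of ATP synthase 6 were lower and 1 higher (median -0.55), with the catalytic-head subunit Atp5a1 at -1.18 ± 0.24 (adjusted p = 0.00298). In complex II, which has no mitochondrial gene, 2 of 4 were lower, Sdhd (-1.07 ± 0.22) and Sdha (-0.97 ± 0.25). Against the background of 42.3% called, these lists were called no more often than genes at large, apart from complex II and ATP synthase, whose shares lay close to it. Calls for complex II and ATP synthase were mostly lower, while the 42.3% counts both directions.

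Regulators of mitochondrial biogenesis had 4 lower and 0 higher of 11 at E18, led by the coactivator Ppargc1a (-2.14 ± 0.37, adjusted p = 0.00117) and the nuclear receptor Esrrg (-3.29 ± 0.73, adjusted p = 0.00456). Of 18 mass markers 7 were lower and 0 higher (median -0.62), with the matrix chaperones Hspd1 (-2.30 ± 0.25) and Hspa9 (-1.96 ± 0.23) and the porin Vdac1 (-0.92 ± 0.22). Among 26 genes of mitochondrial RNA processing and decay 2 were higher and 5 lower. Lrpprc, which with Slirp binds and stabilises mitochondrial messengers, fell by 1.75 on the log2 scale (SE 0.26, adjusted p = 0.000559), while Slirp rose by 1.23 ± 0.20 (adjusted p = 0.000875). Of 11 genes of mitochondrial transcription 1 was higher, Mterf4 (1.89 ± 0.23), and 2 were lower, Mrpl12 (-1.29 ± 0.26) and Tfb1m (-1.06 ± 0.35). Of 15 genes of mitochondrial DNA replication and copy number 3 were higher and 4 lower, with the topoisomerase Top1mt at -2.41 ± 0.40. Of 76 tested mitochondrial ribosomal protein genes 4 were higher and 13 lower. The shares called in these lists, both directions together, lay near or below the background of 42.3%. That background splits by direction, with 20.5% of all genes called higher, whereas every call among the mass markers and biogenesis regulators was lower. Of the 7678 genes called, 3725 were called higher and the others lower, so the background of calls lower is well under 42.3%. The reading of near or below holds only for both directions together. Without E12 WT 3, 10 of 18 mass markers were called lower and 0 higher, with 45.9% of all genes called.

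Mitochondrial messengers per count of 79 nuclear respiratory chain subunits were 11.4, 7.16 and 14.2 in E18 DKO and 5.56, 4.65 and 8.24 in the E18-labelled WT libraries, which overlapped. In E12 DKO the ratio was 5.12, 6.34 and 5.33, and in E12 WT 7.75, 7.11 and 19.2, so that WT lay above DKO at E12 in every library (-5.75, exact p = 0.1, adjusted p = 0.333). Without E12 WT 3 the difference was -1.83 (exact p = 0.2). At E12 the nuclear subunit lists had medians of -0.74 for complex I, -0.62 for complex III, -0.75 for complex IV and -0.73 for complex V, beside -0.08 over all tested genes. These became -0.38, -0.32, -0.35 and -0.33 without E12 WT 3. Complex II, all nuclear, had a median of 0.04, and 0.13 without that library.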

How the data were processed

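RNA from frozen, ground membranes was made into libraries with a stranded messenger RNA kit, per the labels' protocols. The tools were Trimmomatic 0.36, STAR 2.4.2a and Subread 1.5.0 on GRCm38, per the submitters' processing notes. The deposited values are raw counts per gene on Ensembl release 86, with strand option 2 and without reads aligned to several places, per the file headers. The counts of E12 DKO 1 come from the series table. Symbols were found for 48349 gene IDs, and the reference transcripts were GENCODE M21.

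From these counts, filterByExpr left 18153 genes. CPM and tests use trimmed-mean (TMM) scaling in edgeR 4.0.16 (R 4.3.3), with 1 quasi-likelihood model of 4 group means over 12 libraries (8 degrees of freedom for the residual, with a biological coefficient of variation of 0.373 in common) and Benjamini-Hochberg adjustment over all tested genes. DESeq2 1.42.0, no filter, library size alone, a replicate block, only the groups compared and leaving out each library were alternatives. Shares were compared by exact permutation (Python 3.11.15). The fitting script was tested on simulated data. Named are all messenger and ribosomal RNA genes, the transfer RNA genes past the filter, Bgn and Dcn, and up to 3 genes with the lowest adjusted p in each nuclear list. The members and lists were chosen with earlier results of these data known.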

Additional observations from a re-analysis of the deposited data

Results flagged for a closer look

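The effect of the double knockout differed between E18 and E12 for 8 mitochondrial genes by edgeR's test of the difference itself (adjusted p under 0.05, E18 minus E12, log2). The values were 2.95 for mt-Rnr1 and 3.66 for mt-Rnr2. They were 2.19 for mt-Nd1 and 2.33 for mt-Co1, which were not called without E12 WT 3. Among transfer RNA genes they were 5.41 for mt-Tw, 6.08 for mt-Ta, 9.24 for mt-Tt and 3.57 for mt-Tp. The value for mt-Tt is a description only, since that gene passed the filter on low counts only through the E18 DKO libraries. For Gm28438, the nuclear copy of mt-Nd3, the value was 7.81, from counts that may hold reads of either gene. Without E12 WT 3 the values were 1.68 for mt-Rnr1, 2.71 for mt-Rnr2, 1.28 for mt-Nd1, 1.49 for mt-Co1, 3.03 for mt-Tw, 4.26 for mt-Ta, 7.33 for mt-Tt, 2.67 for mt-Tp and 5.66 for Gm28438. Each difference sets the E18-labelled WT libraries, which carry embryonic globin, and E12 WT, which holds E12 WT 3, against the DKO libraries. Their part in the values was not tested.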

How the results depend on the processing

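The counts of called members moved by more than 1.5 times under some alternatives, given here with the percentage of all genes called in the same fit. With library size alone the difference of the DKO effects had 5 (47.5%) and WT from E12 to E18 had 2 (1.5%). Without the filter WT from E12 to E18 had 2 (0.731%). DESeq2 gave 11 at E12 (11.5%) and 11 for WT over stages (6.8%). With only the groups compared, DKO over stages had 9 (59.4%) and WT over stages 0 (0.333%). Among alternatives chosen after seeing the data, leaving out E12 WT 1 and 3 together gave 9 for DKO over stages (53.3%), and scaling to mitochondrial messenger counts gave 4 for the difference (21.8%). That scaling turned the sign at E12 for mt-Nd4 (0.02), mt-Nd5 (0.28), mt-Nd6 (0.40) and mt-Cytb (0.03).

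Leaving out each library in turn gave 0 to 16 called members at E12 (0.00535 to 17.1% of all genes), 2 to 7 at E18 (31.3 to 50.5%), 5 to 15 for the difference (33.2 to 45.5%), 2 to 8 for DKO over stages (34.4 to 53.5%) and 0 to 15 for WT over stages (0.187 to 8.99%). The DKO minus WT share at E18 ran from -0.474 to 1.63 points, and turned sign without E18 DKO 3 (-0.474) and without the second E18-labelled WT library (-0.126). Values at E12 that turned sign were mt-Nd6 without E12 WT 3 (range -1.78 to 0.03) and, without E12 WT 1, the transfer RNA share (-0.000806 to 0.103 points), the ratio of mt-Rnr1 to mt-Rnr2 (-0.0797 to 0.112) and the complex III share (-1.32 to 1.48 points). The complex I share at E18 ran from -1.99 to 0.536 points and turned without the third E18-labelled WT library. The cause was not tested.

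Of 18 same-numbered pairs of libraries, 5 correlated above 0.1 (range -0.176 to 0.288). Without differently numbered pairs beside them, these values cannot show whether the replicate numbers pair the libraries. A replicate block gave 0 called members for WT over stages (0.424% of all genes), 6 at E18 (41.3%), 8 for the difference (40.2%), 4 for DKO over stages (45.2%) and 0 at E12 (0.0275%).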
